A study of Homo sapiens with 28 samples.

Results

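Clone 3.6 is a TWIST1 knockout clone of MDST8, a human colorectal cancer line of the mesenchymal CMS4 subtype, and is labelled TG3, colony 6. Its members here were the 3 RNA-seq libraries with that label, out of 18 MDST8 libraries, 24 RNA-seq libraries and 28 samples in the whole series. They were compared with the 3 libraries of WT MDST8 cells, and with the 12 libraries of the other 4 knockout clones, 1.1, 2.2, 3.2 and 3.5, with 3 libraries each. The labels give no treatment for any of these groups, and all 5 clones carry the same genotype label, TWIST1 knockout. The knockout was made by electroporation of Cas9 protein with guide RNA, and each clone was grown from a single sorted cell. One clone is therefore one cell's descendants, and whatever else that cell carried cannot be told apart from the loss of TWIST1 in this comparison. Nothing in the labels says that the 3 libraries of a group came from separate cultures, so p-values measure only the spread between libraries, which may be technical.

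TWIST1 is a basic helix-loop-helix transcription factor that binds E-boxes, short DNA motifs of the form CANNTG, as a dimer with E proteins. It is known for driving epithelial-mesenchymal transition, in which cells lose junctions and gain motility and a fibroblast-like matrix. The ID proteins are helix-loop-helix proteins without a DNA-binding region that pair with E proteins, and their genes are classical targets of BMP signals.

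Total counts per library ran from 19700234 to 21608317 in clone 3.6 and from 18502364 to 19382787 in WT. The mitochondrial share of counts was 2.38 to 3.28% in the clone and 2.4 to 3.05% in WT. Pearson's r of log2 CPM across genes was 0.994 to 0.995 within either group and 0.949 to 0.953 between them, as a description, since genes are not independent replicates. Levels below are CPM, counts relative to the library total after TMM scaling, given as mean ± SD over 3 libraries unless said otherwise. A gene was called when its log2 fold change exceeded 0.58 in either direction with an adjusted p-value below 0.05. Tests were edgeR's quasi-likelihood tests, adjusted by Benjamini-Hochberg over the 13706 genes that passed a filter on low levels. Every adjusted p below comes from that test, and "rose" and "fell" are used of called genes.

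The line's label was checked against markers. VIM and FN1, mesenchymal genes for an intermediate filament and a matrix protein, were at 3699 to 3820 and 4974 to 5958 CPM in the clone, and at 3385 to 3573 and 5082 to 5782 CPM in WT. The epithelial genes CDH1, CLDN7 and GRHL2 and the intestinal regulator CDX2 had 0 counts in all 6 libraries, and EPCAM had 2 counts in WT and 7 in the clone. Of 23 mesenchymal markers 17 were high enough to be tested, while CDH11 had 0 counts in all 6 libraries and COL3A1 16 in WT and 0 in the clone. Of 29 epithelial and 25 intestinal markers only 9 and 3 were high enough to be tested. Thus most mesenchymal markers were present, and most epithelial and intestinal markers were at or near background. Epithelial exceptions included KRT18, at 59.8 to 63.9 CPM in WT and 47.7 to 56.0 CPM in the clone. TJP1 was at 60.5 to 61.9 CPM in WT and 78.1 to 86.6 CPM in the clone. Of 21 markers of blood, endothelium and nerve, 2 were tested, SNAP25 and the myelin gene MBP. The summed level of all 21 was 68.3 to 70.4 CPM in WT and 107 to 109 CPM in the clone. MBP was at 23.1 to 25.6 CPM in WT and 54.2 to 56.0 CPM in the clone. Markers too low to be tested went both ways. The neuronal gene RBFOX3 had 15 counts over the WT libraries and 109 over the clone's, LYZ 7 and 40, GFAP 22 and 52, and TEK 4 and 16. Among those lower in the clone, SYP had 44 and 35 counts, CD68 8 and 1, KDR 8 and 3, and CD14 3 and 1. The leukocyte gene PTPRC and the endothelial gene PECAM1 were at or below 0.204 CPM in both groups, and CD3E, MS4A1 and HBA1 had 0 counts. The part of other cell types in the results was not tested beyond these values.

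TWIST1 itself was not called. Its mRNA levels were 45.2, 52.7 and 40.6 CPM in WT and 46.1, 44.9 and 44 CPM in the clone, and the groups overlapped, with a log2 fold change of -0.04 (SE 0.07, adjusted p = 0.652). A small insertion or deletion in the coding sequence need not lower the mRNA count, so this value does not check the knockout. The paper reports that knockout was assessed by Sanger sequencing of the guide site and by Western blot.

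Against WT, 2099 genes rose in clone 3.6 (15.3% of those tested) and 1605 fell (11.7%). All 3 clone libraries lay above all 3 WT libraries for 4824 genes (35.2%) and below them for 4845 (35.3%). The called genes included 1742 of 11930 protein-coding genes up and 1336 down, and 300 of 1280 long noncoding RNAs up and 160 down. Under limma on log2(count + 1), with no scaling for library size, the split shifted to 2685 up and 1105 down, so that 70.8% of calls were increases instead of 56.7%. In that setting the decreases of ENO1, SNAI2, WNT10B, DUSP7 and TMPRSS15 given below missed the fold threshold, at -0.52 to -0.58. The median over all genes there was 0.13 on the log2 scale, against 0.00 with TMM scaling. Against the mean of the other 4 clones, a contrast in which no WT library enters, 876 genes were higher in clone 3.6 (6.39%) and 742 lower (5.41%). The same limma setting gave 1264 higher and 494 lower there, so that 71.9% of calls were increases instead of 54.1%.

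**Figure D1:**
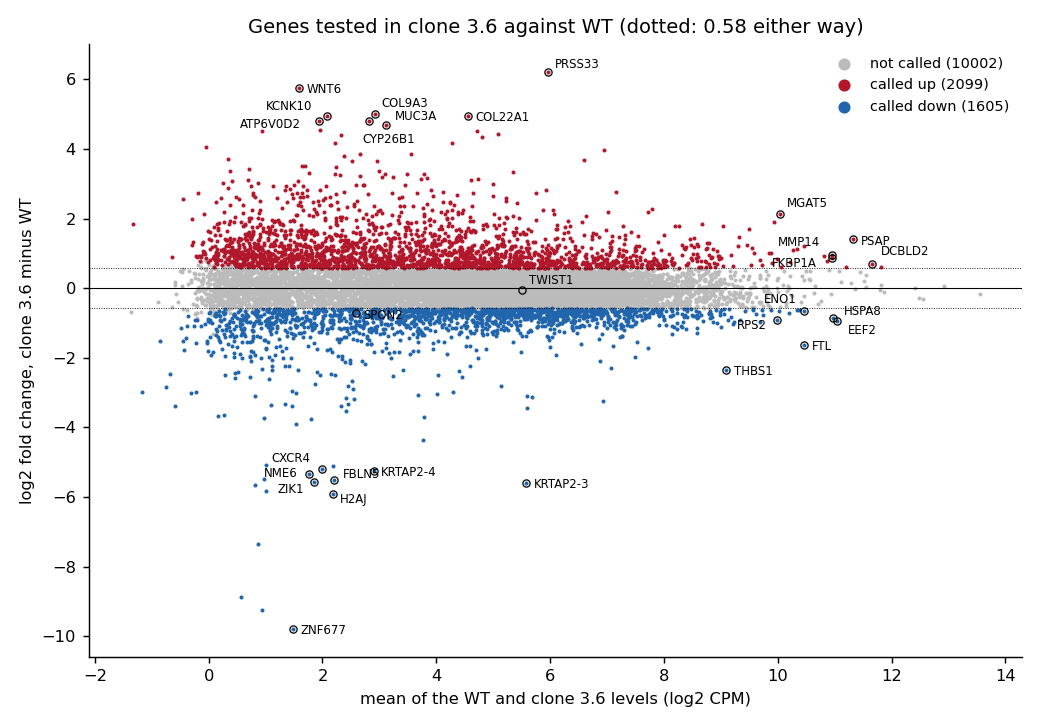
Each point is 1 of the 13706 genes tested, with the mean of the WT and clone 3.6 levels in log2 CPM on the x axis and the log2 fold change of clone 3.6 against WT on the y axis. The 2099 genes called up are red, the 1605 called down blue, and dotted lines mark 0.58 in either direction. PRSS33 lies highest at 6.22, TWIST1 sits at -0.04, and the value of ZNF677, which had no counts in the clone, depends on the prior count of the fit.

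Protein-coding genes with at least 5 CPM in the higher group and no overlap between the libraries were ranked by fold change, and the 8 that rose most included genes for a protease, a WNT ligand, collagens and a potassium channel. PRSS33, a secreted serine protease gene on chromosome 16 (hg38, 2783953 to 2787948), was at 2.62, 1.38 and 0.969 CPM in WT and at 117, 127 and 123 CPM in the clone. The log2 fold change was 6.22 (SE 0.11, adjusted p = 2.66e-31), and the clone also exceeded the other 4 clones, whose means ran from 7.03 to 38.5 CPM, by 2.69 on the log2 scale. Its neighbour PRSS22, at 2852730 to 2858170, encodes a related serine protease and was at 2.51, 1.94 and 2.09 CPM in WT against 48.0, 51.8 and 50.7 CPM in the clone (log2 fold change 4.52, SE 0.11). In both genes no clone library came near a WT library. Of 9 serine protease genes tested, 6 rose and 1 fell, with a median log2 fold change of 0.71 against WT and 1.28 against the other clones, where 5 were called higher. Over all genes tested 15.3% rose and 11.7% fell, and 6.39% were higher than in the other clones. The gene that fell was TMPRSS15, from 33.4 ± 1.65 to 20.6 ± 2.51 CPM.

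WNT6, a WNT ligand gene on chromosome 2 (218859805 to 218874233), was close to background in WT at 0.160, 0.0509 and 0.102 CPM and reached 6.12, 5.20 and 6.41 CPM in the clone (log2 fold change 5.75, SE 0.36, adjusted p = 4.14e-16). The other clones had means of 1.12 to 2.83 CPM, and clone 3.6 was higher by 1.63 on the log2 scale. COL9A3, which encodes a chain of the cartilage collagen IX and lies on chromosome 20 (62816244 to 62841159), went from 0.321, 0.560 and 0.459 CPM to 14.5, 13.1 and 16.3 CPM. Its log2 fold change was 5.01 (SE 0.23), and at 4.08 it stood almost as far from the other 4 clones, whose means were 0.201 to 2.84 CPM. COL22A1, for a collagen of tissue junctions, rose from 1.47 ± 0.257 to 45.7 ± 2.13 CPM (log2 fold change 4.96), and it was already raised to between 4.16 and 28.3 CPM in the other clones. The rest of the 8 largest increases were KCNK10 (a potassium channel), ATP6V0D2 (a proton pump subunit), CYP26B1 (a retinoic acid hydroxylase) and MUC3A (a membrane mucin), with log2 fold changes of 4.95, 4.80, 4.80 and 4.69. All 4 were also higher than in the other clones, by 2.28, 0.99, 3.04 and 1.94.

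Under the same limits, the genes that fell most included a histone gene, a chemokine receptor gene, a matrix gene and zinc finger genes. H2AJ, a histone H2A variant gene on chromosome 12 (14774405 to 14778002), was at 8.88, 8.81 and 9.03 CPM in WT and at 0.137, 0.25 and 0.0468 CPM in the clone (log2 fold change -5.91, SE 0.26, adjusted p = 2.87e-20). The other clones kept means of 2.35 to 12.6 CPM, and the difference from them was -5.13. CXCR4, the receptor of the chemokine CXCL12, on chromosome 2 (136114349 to 136119177), was at 8.29, 8.20 and 6.88 CPM in WT and at 0.274, 0.150 and 0.187 CPM in the clone (log2 fold change -5.20, SE 0.28). The other clones spread widely in CXCR4, from 0.567 to 17.4 CPM, and clone 3.6 lay below all 4 means. FBLN5, for an elastic fibre protein, fell from 8.97 ± 0.0574 to 0.194 ± 0.168 CPM (log2 fold change -5.52), and all 4 other clones were also below 0.9 CPM. KRTAP2-3 and KRTAP2-4, keratin-associated protein genes of near-identical sequence whose reads may have been split between them, fell by 5.59 and 5.24 on the log2 scale. NME6, a member of the nucleoside diphosphate kinase family, fell by 5.33, and ZIK1, a zinc finger gene, by 5.57.

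Of all genes in the table, 5 were off, with 0 counts in every library of the clone and at least 30 in every WT library, and 0 genes were on by the same rule reversed. ZNF677, a zinc finger gene on chromosome 19 (53235381 to 53254898), had 104, 109 and 111 counts in WT, and was at least 38.8-fold lower against a limit of 3 counts per library. S1PR3, a sphingosine-1-phosphate receptor gene on chromosome 9, had 60, 90 and 72 counts in WT and was at least 26.5-fold lower. DNAH2, an axonemal dynein gene, had 61 to 65 counts in WT (at least 22.5-fold lower), the antisense transcript ADGRD1-AS1 had 51 to 70 (at least 20.7-fold lower), and LINC02568 had 33 to 39. In the other clones ZNF677 kept 17 to 131 counts and S1PR3 21 to 70, whereas DNAH2 and LINC02568 had at most 6 counts in any of their libraries. Such limits cover counting error only. Strand was not used in counting, so reads of ADGRD1-AS1 and of a gene opposite to it cannot be told apart.

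**Figure D2:**
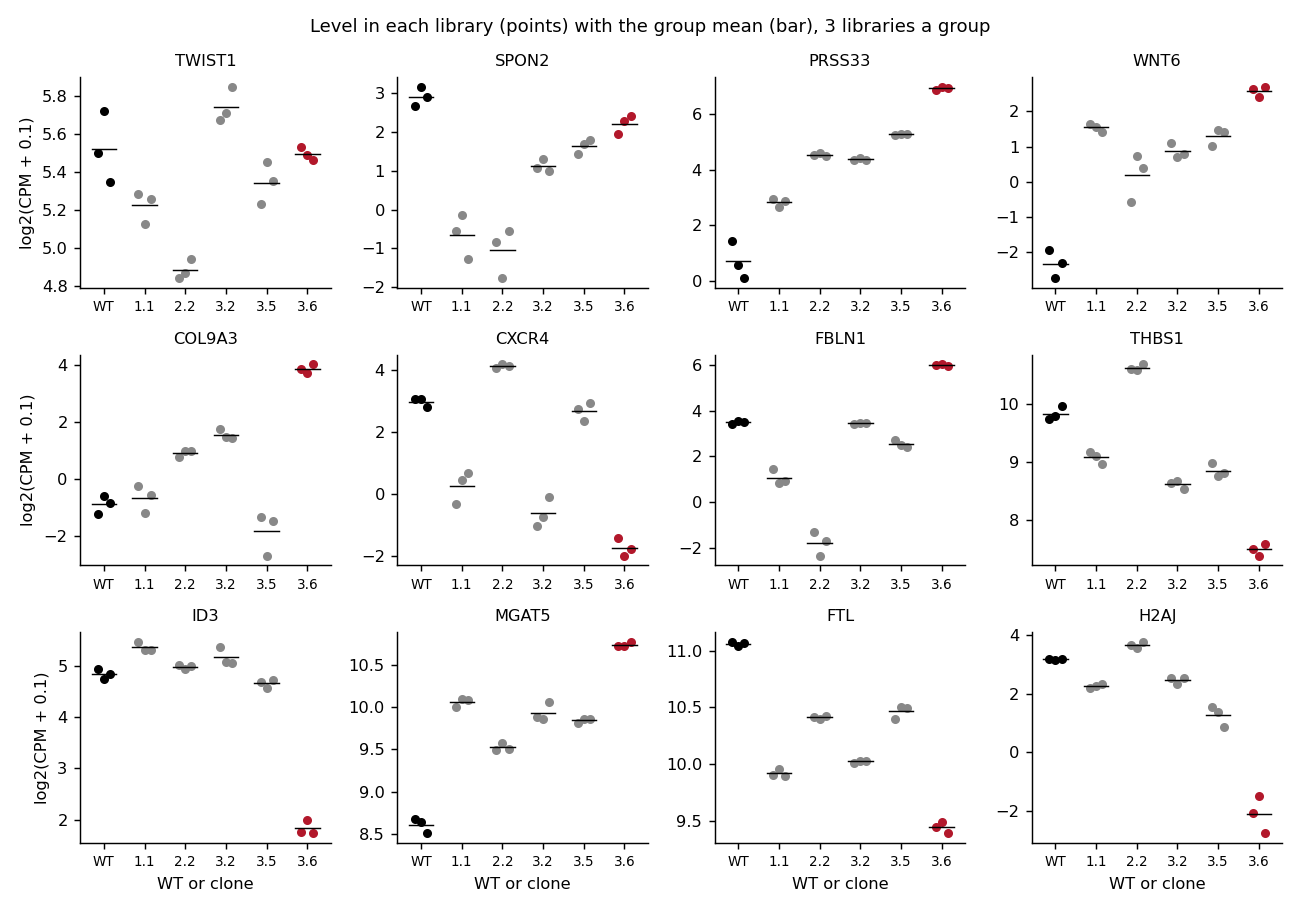
Levels of 12 genes as log2(CPM + 0.1), 1 point per library and a bar for the group mean, for WT (black), clones 1.1, 2.2, 3.2 and 3.5 (grey) and clone 3.6 (red), 3 libraries each, with the y axis set for each gene. TWIST1 overlaps between WT and clone 3.6, while ID3, H2AJ and THBS1 are lower and FBLN1, COL9A3 and PRSS33 higher in clone 3.6 than in any other group.

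Among genes with high counts, the largest gains in CPM, a scale that is not corrected for gene length, included PSAP, DCBLD2, MGAT5, MMP14 and FKBP1A. PSAP, the precursor of the lysosomal saposins, rose from 1464, 1421 and 1330 CPM to 3738, 3844 and 3620 CPM (log2 fold change 1.41, SE 0.04). MGAT5, a Golgi enzyme that branches N-glycans, rose from 410, 401 and 365 CPM to 1689, 1695 and 1751 CPM (log2 fold change 2.13, SE 0.05) and also exceeded the other clones, at 737 to 1071 CPM, by 0.90. MMP14, a membrane-anchored matrix metalloproteinase, rose from 1361 ± 58.5 to 2623 ± 61.6 CPM. The largest losses were in FTL, EEF2, HSPA8, THBS1, RPS2 and ENO1. FTL, the ferritin light chain gene on chromosome 19 (48965309 to 48966879), fell from 2161, 2103 and 2145 CPM to 696, 721 and 672 CPM (log2 fold change -1.62, SE 0.03). EEF2, the elongation factor that moves the ribosome along the mRNA, also on chromosome 19 (3976056 to 3985463), fell from 2775 ± 64.1 to 1449 ± 40.9 CPM. HSPA8, EEF2, RPS2, FKBP1A and FTL have processed copies elsewhere in the genome, which makes their counts uncertain where reads fit more than one copy.

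The long noncoding RNAs with the largest changes were LINC01854 and LINC00648 among increases, and LINC00520 and ENSG00000280614 among decreases. LINC01854 rose from 3.00 ± 0.688 to 65.2 ± 3.52 CPM and LINC00648 from 0.690 ± 0.178 to 9.75 ± 1.02 CPM, and both were higher than in the other clones, by 1.58 and 2.19. LINC00520 fell by 2.75 on the log2 scale to 0.937 ± 0.145 CPM. ENSG00000280614 fell by 2.45, from 4.44, 9.02 and 8.97 CPM in WT, where 1 library lay apart from the other 2, to 1.37 ± 0.252 CPM.

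ID1, ID2 and ID3, classical BMP targets, fell, and the pathway genes NOG and BMP4 rose. ID4 was too low to be tested. ID1, on chromosome 20 (31605283 to 31606515), was at 34.4, 35.9 and 33.6 CPM in WT and at 3.84, 4.90 and 4.54 CPM in the clone (log2 fold change -2.97, SE 0.10, adjusted p = 1.52e-23). ID3, on chromosome 1 (23557926 to 23559501), was at 30.7, 26.7 and 28.9 CPM in WT and at 3.29, 3.90 and 3.23 CPM in the clone (log2 fold change -3.05, SE 0.11). The other clones were at 26.1 to 45.5 CPM for ID1 and 25.3 to 41.4 CPM for ID3, and clone 3.6 was below them by 3.09 and 3.26 on the log2 scale (adjusted p = 2.05e-25 and 1.70e-25). ID2 fell from 15.9 ± 0.593 to 8.38 ± 1.15 CPM, and SMAD7, an inhibitory SMAD gene, from 21.1 ± 1.6 to 10.9 ± 0.728 CPM. SMAD6, the other inhibitory SMAD gene, was at 6.95 ± 0.490 and 4.66 ± 0.532 CPM and missed the fold threshold at -0.57.

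NOG, which encodes the BMP antagonist noggin and lies on chromosome 17 (56593699 to 56595611), was at 21.7, 20.3 and 16.8 CPM in WT and at 64.0, 68.8 and 63.1 CPM in the clone (log2 fold change 1.74, SE 0.09). It stood at 13.5 to 26.1 CPM in the other clones, a difference of 1.94. The ligand gene BMP4 rose from 56.0 ± 5.86 to 158 ± 2.84 CPM and BMP6 by 1.77 on the log2 scale, while BMP2 fell from 70.0 ± 4.18 to 19.5 ± 0.427 CPM and was low in all 5 clones. SMAD1, a signal transducer of BMP receptors, rose from 11.3 ± 0.666 to 25.9 ± 1.5 CPM. Among TGF-beta and activin genes, INHBA (an activin subunit) and the activin-binding genes FST and FSTL3 fell by 0.80, 2.01 and 1.14, and LTBP3 (a latency protein of TGF-beta) and SMAD3 rose by 1.43 and 0.85. In the list of TGF-beta and BMP pathway genes as a whole, 14 of 44 tested members rose and 8 fell (median 0.30), beside 15.3 and 11.7% of all genes tested. Against the other clones 4 were called higher and 9 lower, beside 6.39 and 5.41% of all genes tested.

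WNT pathway genes moved in both directions, beside 15.3% of all genes tested that rose and 11.7% that fell. Of 6 WNT ligand genes tested, 3 rose (WNT6, WNT7B and WNT9A, the last 2 by 2.1 and 1.09) and WNT10B fell by 0.65, and the 3 that rose were also higher than in the other clones. The co-receptor gene LRP5, on chromosome 11 (68312591 to 68449275), rose from 6.26, 6.52 and 6.93 CPM to 41.8, 43.9 and 44.5 CPM (log2 fold change 2.72, SE 0.08), above the other clones at 3.86 to 24 CPM. Of 12 Frizzled and related receptor genes 4 rose and 0 fell, with the lowest level in ROR1, which went from 0.173 ± 0.0620 to 0.626 ± 0.334 CPM but was at 1.38 to 4.51 CPM in the other clones. Among 16 WNT target and feedback genes 8 rose and 2 fell (median 0.57). NKD2 (a Dishevelled inhibitor), SOX4 (a transcription factor) and AXIN2 (a scaffold of the beta-catenin destruction complex) rose by 2.63, 1.84 and 0.76. The 2 that fell were the secreted inhibitor gene DKK1, from 288 ± 5.41 to 73.4 ± 4.65 CPM, and MYC, from 81.6 ± 3.59 to 38.6 ± 2.03 CPM.

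More MAPK feedback genes rose than fell, where 15.3% of all genes tested rose and 11.7% fell. Of 19 MAPK feedback genes 11 rose and 1 fell (DUSP7, by 0.69), with 18 of 19 above WT in their mean and a median of 0.66. The immediate-early gene EGR1 went from 17.2, 17.6 and 10.4 CPM to 107, 104 and 112 CPM (log2 fold change 2.83, SE 0.23), against 21.9 to 46.9 CPM in the other clones. The ETS factor genes ETV4 and ETV5 rose from 30.7 ± 2.37 to 66.2 ± 0.439 CPM and from 77.1 ± 2.71 to 189 ± 1.53 CPM, and both exceeded the other clones, by 0.97 and 0.77. The phosphatase gene DUSP6 and the ephrin receptor gene EPHA4 rose by 1.32 and 1.33. Among growth factor genes, NRG2 and BTC rose by 2.02 and 1.23, whereas NRG1, EGF and EREG fell by 1.55, 1.76 and 1.08, so that 3 of 9 EGF receptor family genes rose and 3 fell. In the FGF family 3 of 9 rose and 4 fell, with FGF1 from 3.92 to 0.377 CPM. Of 15 Notch pathway genes 5 rose and 0 fell, among them the ligand gene DLL4, by 2.85, and the target gene HES1, by 1.35. Against the other clones 5 genes of the list were called higher and 0 lower, beside 6.39 and 5.41% of all genes tested.

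Increases outnumbered decreases among genes of NF-kB feedback, interferon response and antigen presentation, beside 15.3% up and 11.7% down over all genes tested. Of 18 NF-kB genes 10 rose and 2 fell (median 0.62). TRAF1 (a TNF receptor adaptor) rose by 2.81, MIR3142HG (the host transcript of a microRNA) by 2.33 and TNFAIP3 (an inhibitor of the pathway) from 22.8 ± 2.45 to 43.6 ± 1.85 CPM, whereas TNFAIP2 fell from 9.95 to 1.57 CPM. Of 36 interferon-stimulated genes 19 rose and 0 fell, with ISG20, RSAD2, MX2 and IFIH1 up by 3.02, 1.71, 1.69 and 1.66. IFIT1 was not among them, at 8.38 ± 1.1 CPM in WT and 6.52 ± 0.803 CPM in the clone. Of 20 MHC class I genes 10 rose and 0 fell, including the heavy chain gene HLA-B, from 126 ± 2.46 to 274 ± 13.6 CPM, its light chain gene B2M, by 1.02, and the immunoproteasome gene PSMB10, by 1.45. Against the other clones 2, 5 and 1 genes of these lists were called higher and 1, 1 and 0 lower, beside 6.39 and 5.41% of all genes tested. Of 14 chemokine and cytokine genes 6 rose and 0 fell, led by IL32 and IL1A at 1.30 and 1.12.

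Matrix and adhesion genes split by family, beside 15.3% of all genes tested that rose and 11.7% that fell. No list was tested as a set. Of 17 integrin genes 9 rose and 0 fell (median 0.72), among them the laminin-binding subunit ITGA7, from 2.14, 0.815 and 1.12 CPM to 10.5, 9.90 and 11.5 CPM (log2 fold change 2.97, SE 0.21), the collagen-binding ITGA11 by 2.97 and ITGB5 by 1.15. ITGA7 and ITGB4 were also higher than in the other clones, by 2.12 and 1.73, while ITGA11 did not pass the test there at 0.07. LAMA5, a basement membrane laminin chain gene on chromosome 20 (62307955 to 62367312), rose from 4.65, 5.81 and 5.51 CPM to 27.8, 29.2 and 31.4 CPM (log2 fold change 2.47, SE 0.11) and exceeded the other clones, at 1.69 to 9.55 CPM, by 2.56. In the laminin and basement membrane list 3 of 14 rose and 3 fell.

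Matricellular and matrix glycoprotein genes went down more often than up, with 6 of 19 risen and 9 fallen (median -0.43), and 3 higher and 9 lower than in the other clones. All genes tested had 15.3% risen and 11.7% fallen, and 6.39% higher and 5.41% lower than in the other clones. THBS1, for the adhesive glycoprotein thrombospondin, fell from 860, 884 and 1002 CPM to 181, 168 and 194 CPM (log2 fold change -2.34, SE 0.06), below all 4 other clones at 394 to 1585 CPM. CCN1 and CCN2, for secreted proteins that bind integrins, fell from 223 ± 4.21 to 45.8 ± 2.71 CPM and from 325 ± 7.87 to 98.7 ± 2.07 CPM. FBLN1, for a fibulin of basement membranes and elastic fibres, on chromosome 22 (45502238 to 45601135), went the other way, from 10.6, 11.6 and 11.2 CPM to 63.2, 65.0 and 62.2 CPM (log2 fold change 2.51, SE 0.08). The other clones had less FBLN1 than WT, at 0.207 to 10.9 CPM, and clone 3.6 was above them by 4.81. SPON2, for the matrix protein spondin 2, fell from 6.26, 8.81 and 7.29 CPM to 3.75, 4.70 and 5.15 CPM (log2 fold change -0.72, SE 0.18, adjusted p = 0.000791). Without WT replicate B the SPON2 value was -0.57, short of the threshold, and clone 3.6 was above the other clones, at 0.415 to 3.02 CPM, by 2.02.

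Beside 15.3% of all genes tested that rose and 11.7% that fell, 5 of 21 collagen genes rose and 4 fell. COL1A1, the major fibrillar collagen, fell from 612 ± 7.30 to 314 ± 16 CPM while the other clones held 577 to 1210 CPM. COL10A1 fell by 2.35, and COL18A1 and COL7A1 rose by 1.36 and 1.09. Of 19 metalloproteinase and inhibitor genes 7 rose and 4 fell. MMP10, MMP11 and MMP1 rose by 3.27, 2.22 and 1.21, whereas ADAMTS1, which cleaves proteoglycans, fell from 56.4, 59.7 and 68.7 CPM to 8.86, 8.20 and 9.45 CPM. Among 21 hyaluronan and proteoglycan genes 7 rose (SDC2 by 1.67, VCAN by 1.13) and 5 fell (LUM by 1.14, the hyaluronan synthase genes HAS3 and HAS2 by 1.06 and 0.61). CD44, the hyaluronan receptor, was at 1301 ± 7.31 and 1524 ± 29.3 CPM, a log2 fold change of 0.23 that was not called. Of 35 clustered protocadherin genes 18 rose and 1 fell (median 0.60). Many protocadherin genes share their last exons, so their counts are not independent, and the 10 Mb of chromosome 5 around them (140000001 to 150000000) had a median log2 fold change of 0.45 in this clone and 0.37 in the mean of the other 4.

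Genes of cell identity moved in both directions, beside 15.3% of all genes tested that rose and 11.7% that fell. Among EMT transcription factor genes 0 of 7 rose and 2 fell. SNAI2, a zinc finger repressor of epithelial genes, fell from 144, 142 and 141 CPM to 90.2, 85.6 and 88.7 CPM (log2 fold change -0.69, SE 0.04), and it was also lower than in the other clones, by 0.71. FOXC2 fell from 9.06 ± 0.865 to 2.19 ± 0.266 CPM. ZEB1, another repressor of epithelial genes, overlapped between the groups at 47.8 ± 1.32 and 51.0 ± 2.98 CPM. Of 17 mesenchymal markers 5 rose and 3 fell, THY1 and TNC up by 1.47 and 0.77 and TAGLN and FAP down by 1.61 and 1.32. Of 9 epithelial markers tested 3 rose, with the desmosome gene DSP from 3.10, 3.52 and 4.54 CPM to 25.2, 27.3 and 26.1 CPM, and JUP, for the junction protein plakoglobin, fell from 1.09 ± 0.158 to 0.378 ± 0.0690 CPM. Of 13 neural crest and cartilage genes 5 rose and 0 fell, including MITF, the melanocyte and lysosomal gene regulator, from 13.8, 15.3 and 13.5 CPM to 95.8, 89.9 and 96.9 CPM, and the neurotrophin receptor gene NGFR, by 2.12. Of 23 HOX genes 6 rose, 5 of them in the HOXB cluster, and 2 fell. Of 11 stem and progenitor markers 4 rose (SOX2 by 1.14, DCLK1 by 1.17) and 2 fell.

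Proliferation and sterol genes were lower in this clone, where 15.3% of all genes tested rose and 11.7% fell. All 32 mitosis genes had a lower mean than WT, and 19 fell and 0 rose (median -0.65). CDC20, an activator of the anaphase-promoting complex, fell from 174, 186 and 174 CPM to 89.8, 81.2 and 86.8 CPM (log2 fold change -1.05, SE 0.04), and MYBL2 and CCNA2 fell by 1.27 and 0.93. Of 41 DNA replication genes 27 fell and 0 rose (median -0.75), among them CCNE1, ORC1 and TYMS, by 1.24, 1.15 and 1.1. MCM2, a helicase subunit, missed the fold threshold at -0.54. Against the other clones 0 mitosis genes and 2 replication genes were called lower, beside 5.41% of all genes tested. Both lists had medians of -0.13 in that contrast. Of 24 cholesterol synthesis genes 12 fell and 0 rose (median -0.57). HMGCS1, an early enzyme of the pathway, fell from 220, 215 and 218 CPM to 113, 114 and 108 CPM, and INSIG1 fell by 1.29, with 0 genes of the list called against the other clones. Of 17 glycolysis genes 7 fell and 1 rose, with HK2 and GPI down by 1.32 and 1.08. Of 27 YAP and TEAD target genes 2 rose and 9 fell (median -0.19), led by ANKRD1, from 3.91 ± 0.455 to 0.115 ± 0.162 CPM, and including CCN1, CCN2 and AXL. Among 26 p53 target genes 2 rose and 0 fell, and CDKN1A overlapped between the groups at 469 ± 15.1 and 459 ± 9.75 CPM.

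**Figure D3:**
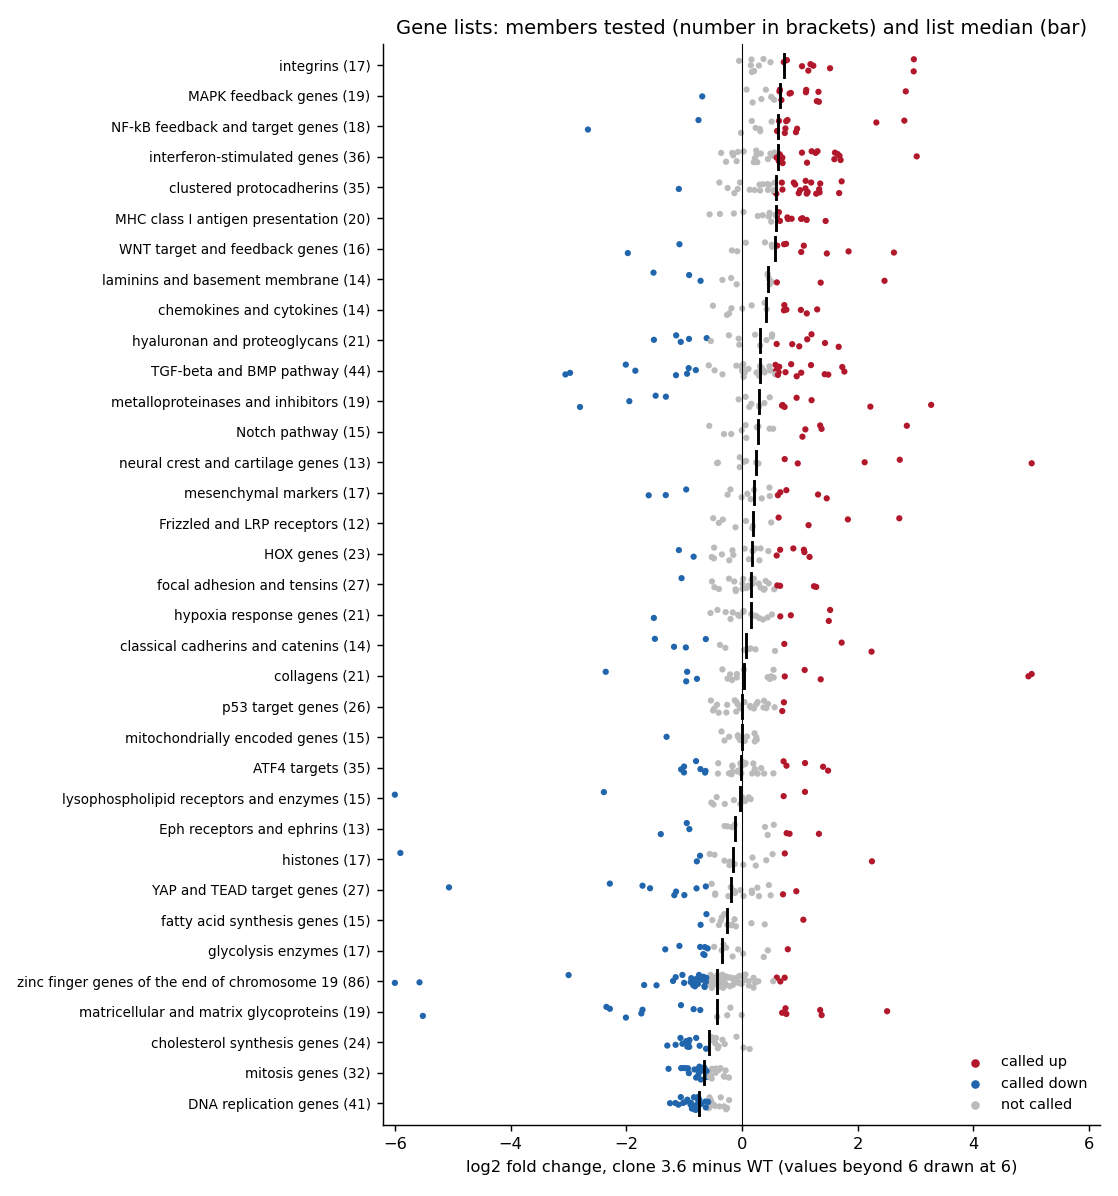
Log2 fold changes of clone 3.6 against WT for the tested members of 35 gene lists, 1 point per gene and a black bar at the list's median, with red for called up, blue for called down and grey for not called (values beyond 6 are drawn at 6). Medians run from 0.72 for integrins to -0.75 for DNA replication genes, where no member lies above 0.

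A pair of lists was named by the study as raised and lowered without TWIST1. The study chose them by joining TWIST1 ChIP-seq with RNA-seq of knockout MDST8 cells and of knockdown LoVo cells, another colorectal line. Its volcano plot for MDST8 shows clone 3.6 against WT. The lists thus rest on these same samples and are no independent evidence of direction. In clone 3.6, 12 of 13 and 11 of 14 genes changed in the listed direction, with medians of 1.29 and -0.89. KCNAB2 (a potassium channel subunit) and PIK3IP1 (an inhibitor of PI3 kinase) rose by 3.29 and 2.12, and the coagulation initiator gene F3 fell by 1.17. SLC7A5, an amino acid transporter gene, fell from 18.2 to 9.12 CPM against WT but was above the other clones by 1.56.

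Chromosome 19 stood apart in this clone. Of its 949 genes tested, 750 had a lower mean than WT (79.0%), 306 fell (32.2%) and 66 rose (6.96%), with a median log2 fold change of -0.39. In clones 1.1, 2.2, 3.2 and 3.5 the same genes had medians of -0.02, -0.01, -0.10 and 0.00. Against the other 4 clones the median was -0.37, with 193 genes lower and 22 higher. All 6 segments of 10 Mb along the chromosome had negative medians, from -0.28 to -0.69, the lowest at 20000001 to 30000000, where 26 of 43 genes fell. Chromosome 19 held 6.92% of the genes tested, 19.1% of those called lower than WT and 26.0% of those called lower than the other clones. The cause was not tested. Without this chromosome, 2033 genes were up (15.9%) and 1299 down (10.2%) against WT, with 854 up and 549 down against the other clones.

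Chromosome 19 is rich in zinc finger genes. Of 86 tested zinc finger genes near its end, 3 rose and 27 fell (median -0.42), and 20 were lower than in the other clones. The share that fell was near that of all genes tested on the chromosome, at 32.2% (median -0.39). Of all genes tested on the chromosome, 20.3% were lower than in the other clones. In the segment 50000001 to 60000000, 59 of 175 genes fell (33.7%, median -0.43), so these decreases were not particular to zinc finger genes. ZIK1, ZNF544 and ZNF677 were nearly or wholly silent. ZIK1 went from 7.91, 6.11 and 7.19 CPM to 0.137, 0.05 and 0.234 CPM, and ZNF544 fell by 3.00 on the log2 scale. ZNF528, ZNF471 and ZNF415 were the 3 that rose, by 0.74, 0.66 and 0.60, of which ZNF471 and ZNF415 lost their call without certain single libraries. Of the DNA replication genes described above, 35 lie on other chromosomes, of which 21 fell (median -0.71).

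Chromosome 13 was lower too, with a median of -0.28 and 73 of 257 genes down (28.4%), and here clone 2.2 was near it at -0.22 while the other 3 clones were between -0.06 and 0.05. Against the 4 other clones its median was -0.25. On chromosomes 18 and 14 the medians of -0.33 and -0.19 were shared by all 5 clones, and so were the positive medians of chromosomes 15 and 5, at 0.17 and 0.14. On chromosome 4, where clones 2.2 and 3.5 had medians of -0.40 and -0.42, clone 3.6 was at 0.02. Over the 20 chromosomes other than 13, 18 and 19, clone 3.6 had between 7.21 and 17.1% of genes called down.

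**Figure D4:**
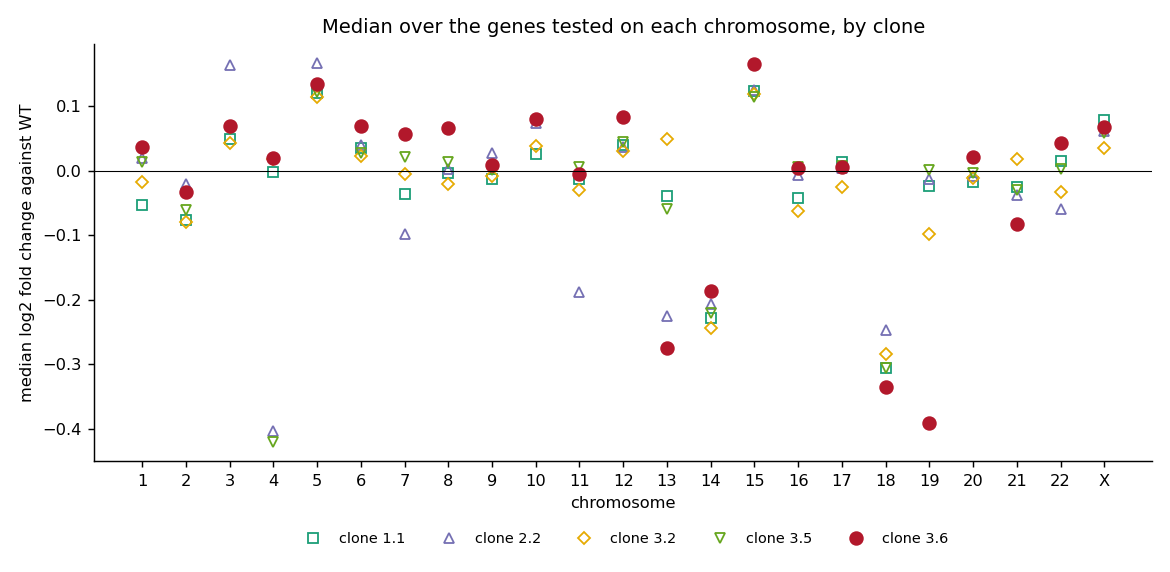
Median log2 fold change against WT over the genes tested on each chromosome (x axis), for clone 3.6 (filled red circles) and the other 4 clones (open symbols). Clone 3.6 is lowest on chromosome 19 at -0.39, where the other clones lie between -0.10 and 0.00, and on chromosomes 14 and 18 all 5 clones lie below 0.

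TWIST1 binding in WT MDST8 cells was available as a single list of 338877 ChIP-seq peaks from MACS2, kept by the authors at an unadjusted p-value below 0.05, of which 1075 (0.317%) had a q-value of at most 0.05. A listed peak lay within 3000 bp of the 5' end for 75.3% of genes called up, 75.6% of genes called down and 76.8% of genes not called. With peaks of q at most 0.05 these shares were 0.667% (14 genes), 0.561% (9 genes) and 0.650% (65 genes). The list has no replicate, and no test was made of these shares. The E-box CATCTG or its reverse complement, a form bound by TWIST1, was found within 100 bp of the summit in 14.4% of listed peaks and 15.8% of those with q at most 0.05, and any CANNTG in 69.7 and 71.2%. In RefSeq promoters (250 bases before to 50 after the start, GRCh38.p14, 10310 tested genes matched), CATCTG on either strand was present in 10.8% of genes called up, 9.22% of genes called down and 8.99% of genes not called. Such a match is a description of letters and not evidence of a site.

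Among protein-coding genes called in clone 3.6 with a peak of q at most 0.05 whose summit lay within 1000 bp of the 5' end, the 3 with the highest -log10 q were NID2, CHRNA1 and SERPINI1, chosen after the values were seen. For NID2 and CHRNA1, whose summits lie upstream of the gene, the 201 bases around the summit are shown, since they hold CATCTG or its reverse complement. The windows are the + strand of hg38, 5′ to 3′, with every CANNTG in capitals, at chr14:52069127-52069327 (NID2) and chr2:174787930-174788130 (CHRNA1).
NID2: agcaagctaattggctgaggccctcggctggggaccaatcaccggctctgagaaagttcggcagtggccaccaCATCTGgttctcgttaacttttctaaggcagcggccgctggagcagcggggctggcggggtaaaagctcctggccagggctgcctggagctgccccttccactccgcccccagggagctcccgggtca
CHRNA1: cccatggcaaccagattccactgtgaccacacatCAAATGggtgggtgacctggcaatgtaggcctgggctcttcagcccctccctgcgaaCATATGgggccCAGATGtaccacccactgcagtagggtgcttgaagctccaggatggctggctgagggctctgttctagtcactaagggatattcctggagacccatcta
NID2, for the basement membrane protein nidogen 2, has its peak summit 168 bp upstream of the 5' end (fold enrichment 7.78, -log10 q 8.40) and a single E-box, CATCTG. It fell from 2.57, 1.68 and 3.31 CPM to 0.457, 0.800 and 1.36 CPM (log2 fold change -1.53, SE 0.31). CHRNA1, for the muscle acetylcholine receptor alpha subunit, has its summit 95 bp upstream (fold enrichment 5.27, -log10 q 4.24) and 3 E-boxes, of which CAGATG is the reverse complement of CATCTG. It rose from a mean of 0.893 to 5.70 CPM (log2 fold change 2.66). SERPINI1, for the inhibitor neuroserpin, has its summit 873 bp downstream, inside an exon of the gene (fold enrichment 4.92, -log10 q 2.60), and no CANNTG in the 201 bases around it. It rose from 0.852 to 10.7 CPM (log2 fold change 3.65). The NID2 and CHRNA1 summits lie in no annotated gene. The 3 genes share a listed peak and differ in direction.

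Some genes moved against the other clones. In all, 20 protein-coding genes rose in clone 3.6 while the mean of the other 4 clones was called lower than WT, and 7 genes, 5 of them protein-coding, fell while that mean was called higher. FXYD6, a regulator of the sodium pump, rose from 10.8 ± 0.329 to 31.3 ± 3.27 CPM, and the other clones had 22, 0.102, 9.73 and 0.104 CPM in the order 1.1, 2.2, 3.2 and 3.5. GFRA1, a receptor for the growth factor GDNF, rose from 3.74 to 17 CPM with the other clones at a mean of 1.76 CPM. JUP fell in clone 3.6, whereas clones 1.1 and 3.5 held 22.4 and 36.2 CPM and clones 2.2 and 3.2 held 0.671 and 0.951 CPM. A mean over 4 clones thus stands for clones that themselves differ by large factors in FXYD6, CSMD2 and JUP. PDZD4 was lower than in WT, at 7.08 ± 0.422 against 10.6 ± 1.30 CPM (log2 fold change -0.58, not called), and above the other clones, at 0 to 2.78 CPM.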

How the data were processed

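For RNA-seq (oligo-dT selected, dUTP libraries) the authors trimmed reads with Trim Galore 0.6.6, aligned them to hg38 with HISAT2 2.1.0 and deposited raw counts per GENCODE 43 gene from featureCounts 2.0.0, with no normalization. Per the file headers, read pairs were counted without use of strand. The deposited table also holds exon lengths, which were not used. For ChIP-seq of WT cells (antibody ab50887) the authors aligned reads with Bowtie2 2.4.5 and called peaks with MACS2 2.2.7.1. The deposited peak list gives a score, fold enrichment, -log10 p, -log10 q and summit distance, and was read as hg38, the 1 build in the submitters' processing notes.

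Of 62703 genes, 13706 had a geometric mean of RPM + 1, minus 1, of at least 1 over the 18 MDST8 libraries (17252883 to 22217009 counts). They were fitted together in edgeR 4.0.16 (R 4.3.3) with TMM scaling, and clone 3.6 was contrasted with WT and with the mean of the other 4 clones by quasi-likelihood tests. No column of per-sample values was left unmatched. Symbols came from GENCODE 44 for 62686 identifiers. An exact permutation test of 3 against 3 libraries cannot go below 0.1 and was not used. Alternatives were DESeq2 1.42.0, limma 3.58.1 with voom or on unscaled log2 counts as in the study, RLE factors, other filters, a fit of the compared groups alone, a replicate block, and each library left out.

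Members and gene lists were chosen with earlier results of these data known. Named genes were TWIST1, SPON2, the 8 called protein-coding genes of largest fold change each way with at least 5 CPM in the higher group and no overlap, the 6 largest CPM differences each way, 2 long noncoding RNAs each way, genes off or on (at least 30 counts), up to 4 called members per list and direction, and the 6 genes most different from the other clones each way. Other genes, among them PRSS22, CHRNA1, SERPINI1 and GFRA1, and the ribosomal and lysosomal lists, were named after their values were seen. Some genes that the rule names are not reported here.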

Additional observations from a re-analysis of the deposited data

Results flagged for a closer look

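A difference between clone 3.6 and the mean of the other 4 clones, tested as its own contrast in edgeR, picked out the following. It was called for 876 genes that were higher and 742 that were lower, and for 193 lower genes on chromosome 19. Genes are named below where they were protein-coding, had at least 5 CPM in the higher group, and no clone 3.6 library overlapped any of the 12 libraries of the other clones. Under these limits the 6 largest positive log2 differences were in FBLN1 (4.81), FXYD6 (4.61), TMEM255A (4.19), PDZD4 (4.14), COL9A3 (4.08) and CSMD2 (4.03). TMEM255A rose from 0.446 ± 0.320 CPM in WT to 9.56 ± 1.45 CPM, with the other clones at 4.53, 0.034, 0.184 and 2.2 CPM, and CSMD2 rose from 2.43 ± 0.721 to 16.2 ± 1.63 CPM. The value of PDZD4 includes clone 2.2, in which no library had a count, so it depends on the prior count of the fit.

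Under the same limits the 6 largest negative differences were in ZNF208 (-5.21), H2AJ (-5.13), CXCR4 (-3.79), TRPM2 (-3.38), ID3 (-3.26) and LRRC3 (-3.25). TRPM2, a cation channel, and LRRC3 both lie on chromosome 21 and went from 9.93 ± 0.971 to 0.989 ± 0.319 CPM and from 9.11 ± 0.386 to 0.879 ± 0.305 CPM, whereas the other clones held 6.95 to 16.2 and 6.09 to 10.7 CPM. ZNF208 was at 1.21 ± 0.612 CPM in WT, 0.114 ± 0.118 CPM in clone 3.6, and 0.587 to 14 CPM in the other clones. SPON2 was lower than in WT and above the other clones, by 2.02. No group held 4 to 10 libraries, so no library was tested for standing apart within its group.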

How the results depend on the processing

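Of 251 named genes, 0 changed direction in any setting and 21 gained or lost a call in at least 1. The call of CDH18 (1.79 CPM in WT, 1.15 CPM in the clone) held only with RLE factors and without WT replicate C. Against WT the counts stayed within 1.5 times in each setting. Against the other clones, testing all genes without a filter gave 1571 genes higher, where more genes entered the test, and limma on log2(count + 1) without scaling gave 494 lower. The same limma setting gave medians of -0.15, -0.21 and -0.27 for chromosomes 13, 18 and 19. There the median over all genes was 0.13, against 0.00 with TMM scaling. In both fits, 5 of the 6 segments of chromosome 19 were among the 12 lowest of 251 segments. For promoter peaks, a q-value of at most 0.05 changed the shares to 0.667% of genes up and 0.561% down, and a window of 1000 bp to 50.2% and 52.0%. With each library left out in turn, 2033 to 2134 genes were up and 1552 to 1664 down against WT, 869 to 903 and 721 to 783 against the other clones, and 5 to 7 genes were off and 0 to 2 on (2 without WT replicate A). SPON2 lost its call without WT replicate B, and ZNF471 and ZNF415 without WT replicate A and 1 clone library each.

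The labels give the letters A, B and C without saying whether they pair libraries across groups. Correlations of deviations from the group mean between WT and clone 3.6 were 0.11, 0.02 and 0.08 for the same letter. For different letters they ran from -0.10 to 0.02. Replicate C had the highest mitochondrial share in both groups, at 3.05% in WT and 3.28% in clone 3.6. Whether libraries of a letter share a batch was not tested beyond the block given next. With the letter as a replicate block, 2098 genes were up and 1606 down against WT, 873 and 742 against the other clones, and among named genes CDH18 lost its call (adjusted p = 0.0558 by edgeR). Depth limits statements on genes of a few counts per library, such as WNT6 in WT and H2AJ in the clone.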

Other observations

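Ribosomal and lysosomal genes formed lists that were chosen after values were seen, and are given as values. Over all genes tested 15.3% rose and 11.7% fell, and 5.41% were lower than in the other clones. Of 82 cytosolic ribosomal protein genes 43 fell and 0 rose (median -0.59), with RPS28 from 126 to 51.6 CPM, and 17 were lower than in the other clones. Of these genes 12 lie on chromosome 19, where 11 fell, and 70 elsewhere, where 32 fell (median -0.56). Processed pseudogenes, many of which resemble ribosomal protein genes in sequence, had 8 increases and 85 decreases among 265 tested and whose reads cannot always be told apart from those of the parent gene. Mitochondrial ribosomal protein genes had 9 decreases and 0 increases of 77 (median -0.30), and elongation factor genes 3 decreases and 1 increase of 6. Of 49 lysosomal hydrolase and membrane protein genes 17 rose and 4 fell (median 0.29), among them CTSF, a cysteine protease gene, from 5.98 to 23.1 CPM, GAA, for acid alpha-glucosidase, by 1.19 and CTSB by 0.93. NEU1, a lysosomal sialidase gene, fell by 1.14. Of 20 proton pump subunit genes, ATP6V0D2 was the 1 that rose, and 0 fell (median 0.00).

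Mitochondrially encoded genes were near WT and below the other clones. Their median over 15 genes was 0.01 against WT, with 1 called down (MT-ATP8), and -0.52 against the other clones, with 5 called lower. Of all genes tested, 11.7% fell against WT and 5.41% were lower than in the other clones. On the mitochondrial chromosome the medians against WT were 0.40, 0.28, 0.37 and 0.69 in clones 1.1, 2.2, 3.2 and 3.5 and 0.02 in clone 3.6.

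The other gene lists gave these counts, beside 15.3% of all genes tested that rose and 11.7% that fell, and several lists lay near those shares. Of 35 ATF4 target genes 5 rose and 7 fell. Against the other clones 2 were lower and 9 higher, among them CHAC1 (a glutathione-degrading enzyme) by 1.37 and ASNS (asparagine synthetase) by 1.26. Of all genes tested, 6.39% were higher and 5.41% lower than in the other clones. Hypoxia response genes had 4 increases of 21, NDRG1 by 1.5 and ADM by 1.53, and 1 decrease (ANGPTL4, by 1.52). Fatty acid synthesis genes had 1 increase and 2 decreases of 15, focal adhesion genes 4 and 1 of 27, cadherins and catenins 3 and 4 of 14, and Eph receptors and ephrins 3 and 3 of 13. Lysophospholipid receptor and enzyme genes had 2 increases and 2 decreases of 15, and the decreases were the receptor genes S1PR3 and S1PR1, the latter from 35.5 to 6.76 CPM. Histone genes had 2 increases and 3 decreases of 17, keratin genes 1 and 2 of 7, and claudin genes 0 and 1 of 3. Among 9 mismatch repair genes and MGMT, MGMT rose by 1.29 and EXO1 fell by 1.00. Among intestinal regulators, GATA4 was at 34.8 ± 2.74 CPM in WT and 34.3 ± 0.823 CPM in the clone, and GATA6 had a log2 fold change of 0.06, under the threshold.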
